A study of Mus musculus with 8 samples.

Results

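The proteasome subunit genes are the mouse genes whose symbol on the array begins with Psma, Psmb, Psmc, Psmd or Psme followed by a digit. By this rule 44 of the 18194 genes with a probe set of their own were members, and where a member had several probe sets, the brightest by mean log2 signal over the 8 arrays was used. In all 91 probe sets were annotated to a member, and 23 members had more than 1. Of the 44, 42 encode subunits of the proteasome or proteins that bind and assemble it. Psmc3ip, a cofactor of meiotic recombination, and Psme3ip1, named for its binding to Psme3, met the rule by their letters only. Psme2, an activator subunit, is not among the members, since its probe set was also annotated to Psme2b.

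The proteasome is the protease that breaks down proteins tagged with ubiquitin. Its core is a barrel of alpha rings, which gate the channel, around beta rings, which carry the cutting sites on Psmb5, Psmb6 and Psmb7. A regulatory particle sits on the barrel: its base holds the Psmc ATPases that unfold substrates, and its lid, made of Psmd subunits, removes ubiquitin. Interferon replaces the cutting subunits by Psmb8, Psmb9 and Psmb10 to form the immunoproteasome, which makes peptides for antigen presentation, and the Psme activators bind the core in place of the regulatory particle. In the egg and early embryo, proteasomes take part in the exit from meiosis and in the removal of maternal proteins.

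Polyadenylated RNA was read on 8 Affymetrix mouse arrays of 45101 probe sets, in 3 stages and 2 genotypes. KO mice had connexin 43 (Gja1), a protein of gap junctions, depleted by a knockout directed to the oocyte, and WT mice were their wild type counterparts. MII oocytes, which are mature eggs arrested in meiosis, gave 1 KO and 1 WT array, blastocysts 2 KO and 2 WT arrays, and embryos from the implantation site 1 KO and 1 WT array. The driver of the knockout, the strain, the ages, the embryonic days, the fathers' genotype and the number of animals pooled are not given in the sources used here. Nothing states that the blastocyst replicates came from separate animals, so the spread between them, on which the p-values rest, may be technical. The fit over all 8 arrays assumes the same KO effect at every stage. Its p-values therefore also rest on how far KO minus WT differed between the stages.

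Signal was on a linear scale with a 2% trimmed mean of 500 on every array. Background was read on each array from the brightest of 15 Bacillus control probe sets, which lay at 334 and 132 on the oocyte KO and WT arrays, 395 and 559.7 on the blastocyst KO arrays, 199 and 219 on the blastocyst WT arrays, and 131 and 100.2 on the implantation KO and WT arrays. Between 32 and 43 members lay above it on a given array. Gja1 was uneven between the blastocyst WT arrays: it read 9835 on WT replicate 1 and only 574 on the array labelled WT replicate 2. Both of these lay above their control level, whereas the blastocyst KO arrays, with 375 and 553, lay under theirs. At the implantation site Gja1 read 28105 in KO and 44493 in WT. In oocytes it read 149.7 in KO and 126 in WT, both under the control level, so no difference between these arrays can be read. The stage markers mostly fitted oocytes and blastocysts, with 7 of 8 measured oocyte markers above control on both oocyte arrays and 10 of 10 blastocyst markers above it on all 4 blastocyst arrays. The arrays labelled as embryo from the implantation site carried much uterine RNA: the summed signal of 12 uterus and decidua markers was 164914 in KO and 141300 in WT, against 3816 to 4666 on the blastocyst arrays. Not every one was high: Prl8a2 read 217 and 211, against 708 and 588 in KO and WT oocytes. Of 10 blastocyst markers 3 in KO and 5 in WT implantation sites lay above control, with a summed signal of 1392 and 1933, against 47801 to 59946 on the blastocyst arrays. Among them Nanog, a marker of the embryo's inner cell mass, read 4.94 and 10.6, and Eomes 497 and 389. In such bulk samples fewer cells of a type and less RNA per cell cannot be told apart.

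Promoter sequence was taken from RefSeq on build GRCm38.p6, in windows from 250 bases before to 50 after each gene's start, and 37 member genes matched with 40 windows. These windows had a median of 19.5 CpG and 58.2% GC, against 7.0 CpG and 52.7% GC over all 32851 windows. Searching both strands, the antioxidant response core TGACNNNGC was in 15% of member windows and 12.39% of all windows, and the interferon response core GAAANNGAA in 15% and 8.56%. The CCAAT box was in 40% of member windows and 37.41% of all, and the TATA box TATAAA in 10% and 13.62%. The 4 windows below belong to the members with a single window that had the largest called rises and falls from oocyte to blastocyst. Psmb4 (chr3:94886909-94887208, minus strand) and Psmb6 (chr11:70525107-70525406, plus strand) rose, and Psme4 (chr11:30771525-30771824, plus strand) and Psmd4 (chr3:95042565-95042864, minus strand) fell. Capitals mark any match to the motifs: TATAAA on both strands, overlapping, and the interferon core in Psmb4, the antioxidant core in Psmb6 and in Psme4, and CCAAT boxes with the interferon core in Psmd4.
Psmb4: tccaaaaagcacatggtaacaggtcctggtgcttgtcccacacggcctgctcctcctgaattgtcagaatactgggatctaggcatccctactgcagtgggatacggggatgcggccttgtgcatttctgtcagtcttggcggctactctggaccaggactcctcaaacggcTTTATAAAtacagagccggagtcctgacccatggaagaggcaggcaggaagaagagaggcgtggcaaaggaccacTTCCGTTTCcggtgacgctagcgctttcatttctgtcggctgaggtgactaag
Psmb6: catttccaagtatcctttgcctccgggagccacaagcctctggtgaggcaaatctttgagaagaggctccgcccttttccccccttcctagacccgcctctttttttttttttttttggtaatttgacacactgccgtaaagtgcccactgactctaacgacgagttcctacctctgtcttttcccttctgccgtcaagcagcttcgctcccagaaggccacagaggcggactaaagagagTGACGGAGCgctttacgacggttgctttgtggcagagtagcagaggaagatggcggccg
Psme4: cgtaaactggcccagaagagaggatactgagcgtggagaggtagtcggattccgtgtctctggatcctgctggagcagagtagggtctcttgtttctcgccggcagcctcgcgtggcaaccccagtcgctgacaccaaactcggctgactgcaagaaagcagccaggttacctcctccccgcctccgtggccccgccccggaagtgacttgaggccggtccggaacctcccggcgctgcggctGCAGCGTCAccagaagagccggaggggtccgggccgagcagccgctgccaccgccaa
Psmd4: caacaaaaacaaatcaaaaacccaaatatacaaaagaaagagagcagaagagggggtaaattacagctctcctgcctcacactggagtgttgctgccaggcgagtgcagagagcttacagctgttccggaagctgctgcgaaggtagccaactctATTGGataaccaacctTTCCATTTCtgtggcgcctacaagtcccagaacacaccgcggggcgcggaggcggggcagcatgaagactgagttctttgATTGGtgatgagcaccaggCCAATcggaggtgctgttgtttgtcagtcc
A match describes letters only. The 4 windows were picked as 2 rises and 2 falls, so how the motifs divide among them carries no weight. Over all member windows the antioxidant core was also in Psmb5, Psmc6 and Psmd12, which rose. It was in Psmd9 too, which was called higher but lay under control in oocytes and in KO blastocysts. The interferon core was also in Psmb3 and Psmc2, which rose, in the dim Psmd9, and in Psme1, which was not called.

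The first comparison asked how proteasome transcripts differ between blastocysts and MII oocytes. Most of the core and of the ATPase ring was higher in blastocysts. Of 40 members that passed a filter on mean signal, 28 (70%) rose and 3 (7.5%) fell in the limma fit over all 8 arrays at a Benjamini-Hochberg adjusted p under 0.05, where 26.9% of the 11746 genes tested rose and 18.6% fell. The median member difference was 2.09 on the log2 scale, against 0.43 over all genes tested. Over all 44 members, filtered or not, the median was 1.34, against 0.18 over all 18194 genes. Of these members 34 (77.3%) lay above 0, against 54.3% of all genes. The median raw signal of the members was 2001 and 2186 on the blastocyst KO arrays and 2922 and 2380 on the blastocyst WT arrays, against 636 on the oocyte KO and 783 on the oocyte WT array. Without the array labelled WT replicate 2, whose Gja1 was low, 26 members were called in place of 31, and in the later stage comparisons 13 in place of 15 and 23 as before.

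**Figure D1:**
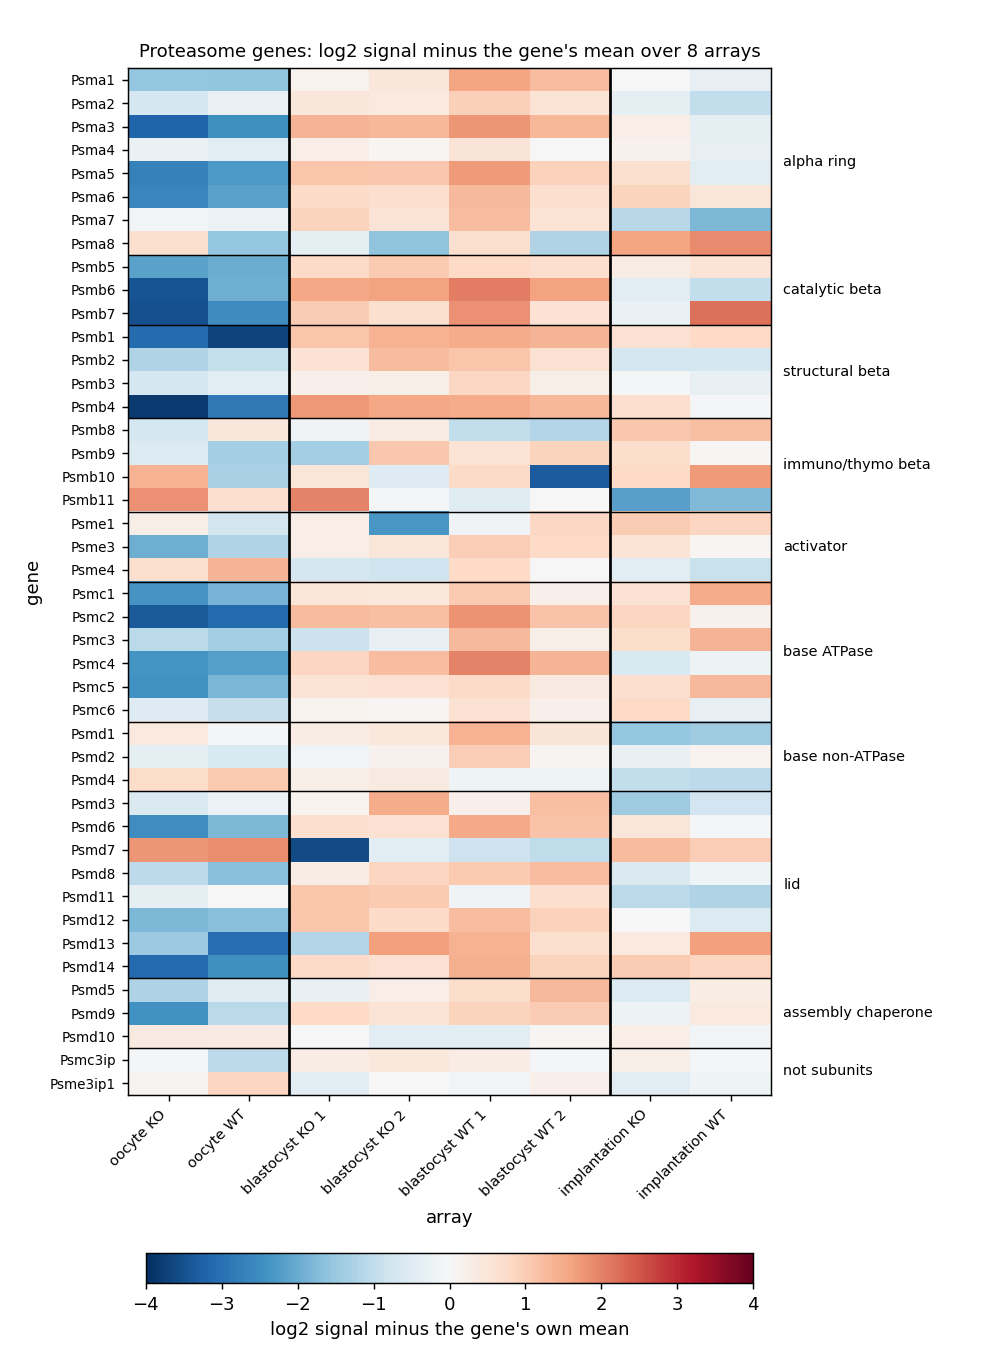
Log2 signal of all 44 members (rows, grouped by role) on the 8 arrays (columns, KO left of WT within each stage) as the difference from the gene's own mean, on a colour scale from blue (below its mean) to red (above). The oocyte columns are blue for most of the alpha, beta and ATPase rows, while Psmd7, Psme4 and Psmd4 are red there.

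The constitutive cutting subunits rose together, 3 of 3. Psmb5, which carries the chymotrypsin-like site, read 808 in KO and 915 in WT oocytes, 6054 and 7458 in KO and 6257 and 5688 in WT blastocysts, and 4382 in KO and 5263 in WT implantation sites. Psmb6, the caspase-like subunit, read 292 in KO and 835 in WT oocytes, 9289 and 9832 in KO and 13176 and 9678 in WT blastocysts, and 2386 in KO and 1625 in WT implantation sites. Psmb7, the trypsin-like subunit, read 64.0 in KO and 129 in WT oocytes, 1491 and 1133 in KO and 2620.3 and 1101 in WT blastocysts, and 614 in KO and 3365 in WT implantation sites. For each of these genes all 4 blastocyst arrays lay above both oocyte arrays, and KO and WT blastocysts overlapped. The blastocyst minus oocyte difference was 2.88 ± 0.28 for Psmb5 (log2, SE; adjusted p = 1.07e-05), 4.40 ± 0.39 for Psmb6 (adjusted p = 5.74e-06) and 4.03 ± 0.53 for Psmb7 (adjusted p = 9.29e-05). The oocyte KO array of Psmb6 was under control. Since Psmb7 was at or under the control level on both oocyte arrays, it was at least 7.07-fold higher in blastocysts. This bound sets the mean log2 signal of the bright stage against the higher, on each dim array, of the gene's own signal and the brightest control.

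All 4 structural beta subunits rose too, and Psmb4 had the largest difference of the members above control on every array. Psmb4 read 658 in KO and 1281 in WT oocytes, 30763 and 27085 in KO and 26196 and 23154 in WT blastocysts, and 14768 in KO and 9053 in WT implantation sites. Its difference between blastocysts and oocytes was 4.86 ± 0.36 (log2, SE; adjusted p = 1.90e-06), a 29.0-fold rise. A second bright probe set of Psmb4 was also higher in blastocysts, by 2.23. Psmb1 read 102 in KO and 65.9 in WT oocytes, both under the control level, 1831 and 2231 in KO and 2384 and 2176 in WT blastocysts, and 1309.7 in KO and 1469 in WT implantation sites. It was at least 10.2-fold higher in blastocysts (adjusted p = 2.78e-06), and its 2 other bright probe sets were higher by 2.66 and 2.34. Psmb2 (1.96 ± 0.35, adjusted p = 0.00083) and Psmb3 (0.93 ± 0.34, adjusted p = 0.0401) rose by less.

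In the alpha ring, which forms the gate, 6 of 7 tested subunits rose. Psma3 read 1529 in KO and 2566 in WT oocytes, 35569 and 35359 in KO and 47069 and 35130 in WT blastocysts, and 16701 in KO and 10638 in WT implantation sites. It was 19.2-fold higher in blastocysts than in oocytes. Another bright probe set of Psma3 differed by only 0.04 on the log2 scale, with 526 in KO and 53.1 in WT oocytes and 122 to 235 in blastocysts. Psma5 read 2012 in KO and 2645 in WT oocytes, 28288 and 27662 in KO and 42655 and 24543 in WT blastocysts, and 20255 in KO and 9680.4 in WT implantation sites. On the chosen probe sets of both genes, oocytes and blastocysts did not overlap. Psma5 was 13.04-fold higher in blastocysts, Psma6 9.33-fold and Psma1 5.37-fold. Psma2 (2.08-fold) and Psma7 (1.97-fold) rose by less, and Psma4 differed by 0.58 ± 0.32 without passing. Psma8, the alpha subunit of the testis that replaces Psma7 in germ cells, failed the filter, with 216 in KO and 47.9 in WT oocytes, 45.9 to 219.9 in blastocysts, and 413 in KO and 514 in WT implantation sites.

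The ring of ATPases that unfolds substrates rose in full, 6 of 6. Psmc2 read 1109 in KO and 1369 in WT oocytes, 27241 and 26603 in KO and 39743 and 25151 in WT blastocysts, and 20831 in KO and 12795 in WT implantation sites. All 4 blastocyst arrays lay far above both oocyte arrays for this gene. Its difference was 4.57 ± 0.34 (log2, SE; adjusted p = 2.02e-06), and those of the others ran from 0.97 for Psmc6 to 3.66 for Psmc4. Psmc6 read 6448 in KO and 4823 in WT oocytes, 10219 and 9434 in KO and 14012 and 10675 in WT blastocysts, and 15926 in KO and 7352 in WT implantation sites. Psmc1 read 152 in KO and 216 in WT oocytes, 1096 and 1044 in KO and 1606 and 911 in WT blastocysts, and 1183 in KO and 2213 in WT implantation sites. For both, all blastocyst arrays again lay above both oocyte arrays, also for Psmc3, with 580.3 in KO and 477 in WT oocytes. The remaining base subunits did not follow. Psmd4, a ubiquitin receptor, fell by 0.83 ± 0.29 (log2, SE; adjusted p = 0.0353), with 5543 in KO and 6767 in WT oocytes, 3860.4 and 4232 in KO and 2921 and 2924 in WT blastocysts, and 1655 in KO and 1609 in WT implantation sites. The scaffold subunits Psmd1 and Psmd2 differed by 0.49 ± 0.34 and 0.77 ± 0.35 without passing.

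Of 8 lid subunits 6 rose and 1 fell. Psmd14, the enzyme that cuts ubiquitin from substrates, rose 13.02-fold, with 622 in KO and 994 in WT oocytes, 9116 and 8194 in KO and 14650.3 and 10042 in WT blastocysts, and 10926 in KO and 9922 in WT implantation sites. Psmd6 rose 8.71-fold, Psmd12 6.69-fold, Psmd8 4.63-fold and Psmd3 2.25-fold, while Psmd13, under control in oocytes, was at least 2.31-fold higher. Psmd13 read 114 in KO and 37.8 in WT oocytes, 140.1 and 978 in KO and 825 and 493 in WT blastocysts, and 413 in KO and 977 in WT implantation sites, so its KO blastocysts differed widely, and replicate 1 was under control. Psmd7, the structural partner of Psmd14, did the opposite, with 1187 in KO and 1244 in WT oocytes, 29.0 and 250.4 in KO and 196 and 172 in WT blastocysts, and 826 in KO and 692 in WT implantation sites. All 4 blastocyst arrays of Psmd7 lay at or under the control level, which makes it at least 3.87-fold lower there (adjusted p = 0.00526). No second bright probe set of Psmd7 was on the array to set beside it, and its dimmer ones differed by 1.37 and -1.57. Averaged over all its probe sets, Psmd7 differed by -1.16 and did not pass (adjusted p = 0.158). Psmd11, a lid scaffold subunit, read 16617 in KO and 21462 in WT oocytes, 47025 and 45530.5 in KO and 19725 and 35028 in WT blastocysts, and 10355 in KO and 9543 in WT implantation sites, and did not pass between blastocysts and oocytes. Its 4 other bright probe sets were split, with 2 higher by 2.90 and 3.10 and 2 lower by 1.37 and 0.29 in blastocysts.

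Among the chaperones that assemble the base, Psmd9 read 36.6 in KO and 93.5 in WT oocytes, 343 and 288 in KO and 366 and 398 in WT blastocysts, and 171 in KO and 259.8 in WT implantation sites. It was fitted as 2.57 ± 0.68 higher in blastocysts (log2, SE; adjusted p = 0.00899), but both oocyte arrays and both blastocyst KO arrays were under control, so no fold is given. The other probe sets of Psmd9, too dim for the filter, differed by -0.90 and 1.51. Psmd5 rose by 1.35 ± 0.36 (log2, SE; adjusted p = 0.00917). Psmd10, also known as gankyrin, differed by -0.56 ± 0.48 and did not pass. Neither Psmc3ip (0.79 ± 0.37) nor Psme3ip1 (-0.57 ± 0.34) passed. Psmc3ip read 773 in KO and 390.1 in WT oocytes, 994 and 1072 in KO and 995 and 764 in WT blastocysts, and 946 in KO and 763 in WT implantation sites, with stages that overlapped.

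The activators moved in different directions. Psme4, a single-chain activator of the core known from sperm formation and DNA repair, read 5707 in KO and 9466 in WT oocytes, 2298 and 2141 in KO and 6355 and 3727 in WT blastocysts, and 2775 in KO and 1969 in WT implantation sites. It fell by 1.16 ± 0.39 (log2, SE; adjusted p = 0.0286) between blastocysts and oocytes, although WT replicate 1 of the blastocysts lay above the oocyte KO array. Its 2 other bright probe sets were lower in blastocysts too, by 1.23 and 1.61. Psme3, the nuclear activator, read 248 in KO and 413 in WT oocytes, 1136 and 1345 in KO and 1895 and 1648 in WT blastocysts, and 1396 in KO and 1008 in WT implantation sites. The difference of 2.21 ± 0.38 (adjusted p = 0.000558) depended on the probe set: a second one read 1769 in KO and 1675 in WT oocytes, 213 to 412 in blastocysts and 104 in KO and 221 in WT implantation sites. Its difference between blastocysts and oocytes was -2.64. Averaged over all its probe sets, Psme3 differed by 0.02. Psme1, a subunit of the interferon-induced activator, read 424 in KO and 217 in WT oocytes, 438 and 71.9 in KO and 333 and 643 in WT blastocysts, and 739 in KO and 653 in WT implantation sites, with stages that overlapped.

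Leaving out single arrays ended every fall and some of the rises. Of the 28 rises 19 passed whichever of the 8 arrays was left out, and 12 passed under each of 18 alternative settings (Psma1, Psma6, Psmb1, Psmb2, Psmb4, Psmb6, Psmb7, Psmc2, Psmc4, Psmc5, Psmd6 and Psmd8). Of the 3 falls 0 did either. Psmd7 no longer passed without the oocyte KO array (adjusted p = 0.0657). Psme4 lost its call without either oocyte array, either blastocyst KO array or the array labelled WT replicate 2 (adjusted p from 0.06795 to 0.1696), and Psmd4 without the oocyte WT array, blastocyst KO replicate 1 or either blastocyst WT array (adjusted p from 0.06495 to 0.317). Over 26 other bright probe sets of 16 members, 22 had the sign of the chosen probe set and 4 the opposite one. The ratio of 3′ to 5′ Actb signal, a sign of transcript truncation, was 25.7 to 69.3 on the blastocyst arrays, against 6.68 in KO and 33.4 in WT oocytes, and its part in the stage differences was not tested.

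**Figure D2:**
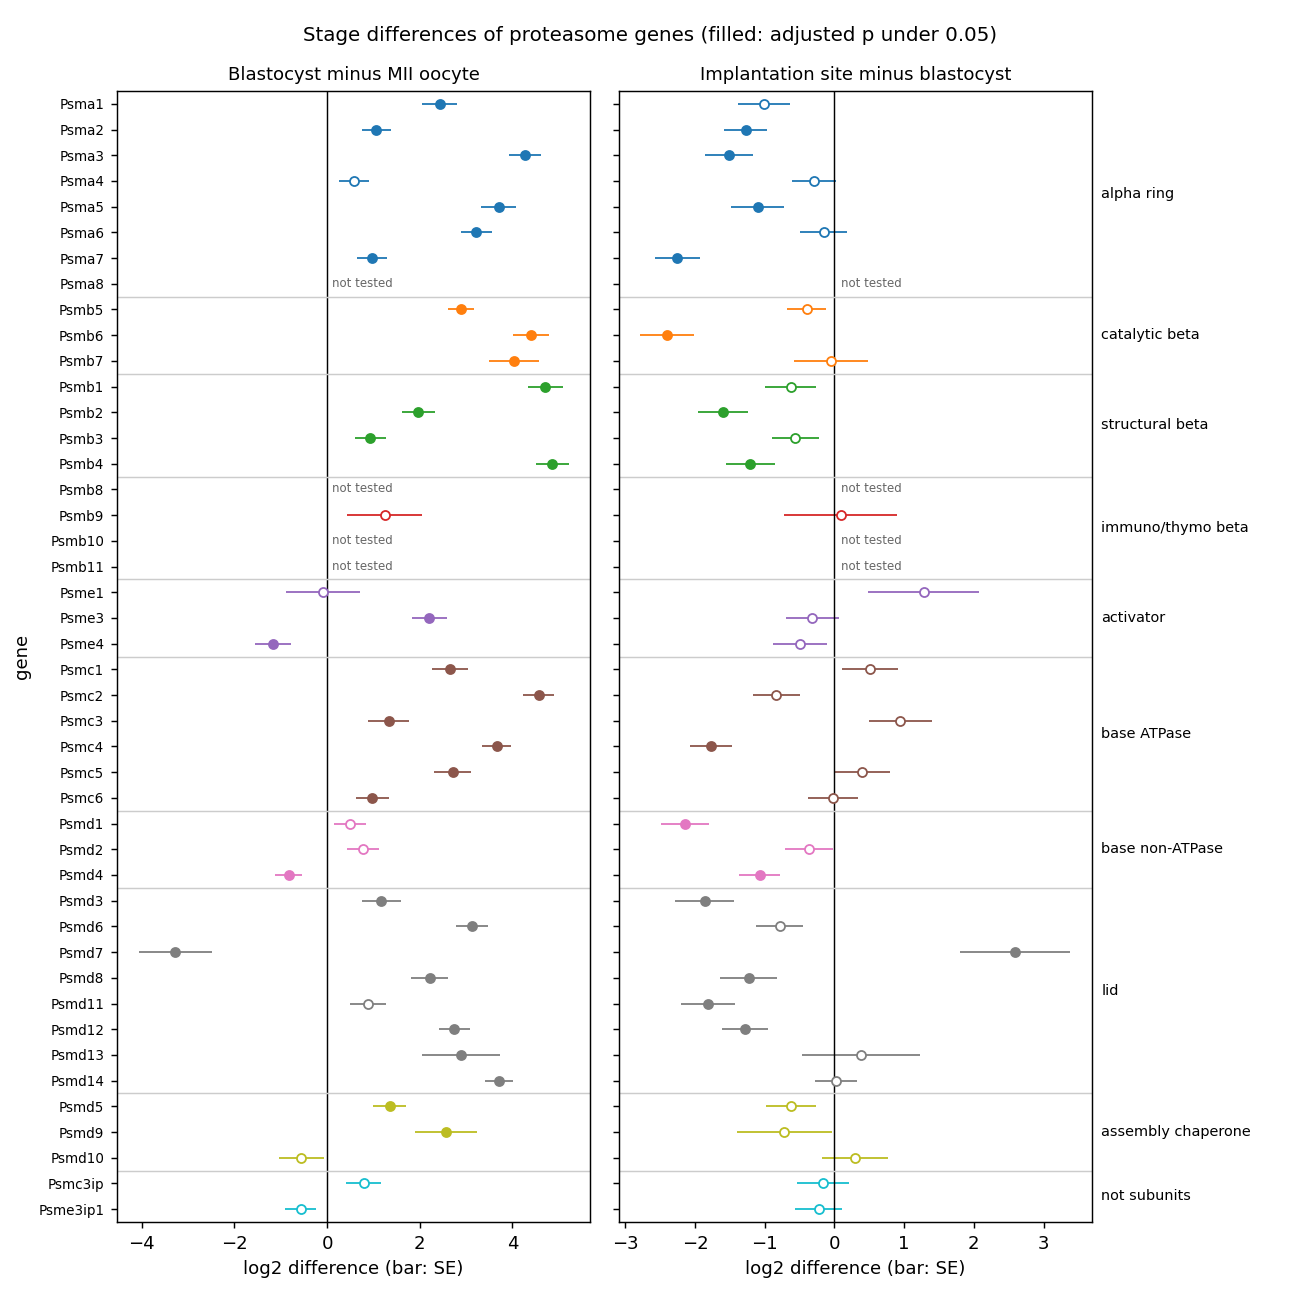
Log2 difference of each member (points, bars are SE) between blastocysts and MII oocytes (left) and between implantation sites and blastocysts (right), from the fit over 8 arrays; filled points passed at an adjusted p under 0.05. On the left 28 filled points lie above 0 and 3 below, and on the right 1 lies above 0 and 14 below.

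The implantation site arrays were then set against blastocysts. Of 40 members tested, 1 (2.5%) rose and 14 (35%) fell, where 15.3% and 20% of all genes tested did, and the median member difference was -0.59 against -0.35 over all genes. Over all 44 members it was -0.53, against -0.49 over all 18194 genes, so it was close to that of the other genes. The stage comparisons share arrays, so they are not independent of each other. The members that fell were 4 of 7 alpha subunits, 1 of 3 cutting subunits, 2 of 4 structural beta subunits, 1 of 6 ATPases, 2 of 3 other base subunits and 4 of 8 lid subunits. The fall of the structural subunit Psmb4 depended on the probe set: the chosen one differed by -1.21 and a second bright one by 1.29. With probe sets without suffix only, Psmb4 was called higher. Over 26 other bright probe sets of 16 members, 18 had the sign of the chosen probe set and 8 the opposite one. Psmb6 was lowest relative to blastocysts (-2.40 ± 0.39, log2, SE; adjusted p = 0.000863), while Psmb5 (-0.40 ± 0.28) and Psmb7 (-0.05 ± 0.53) did not pass. The part of uterine RNA, whose markers were high on both implantation arrays, in these differences was not tested.

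Psma7, an alpha subunit, read 3125 in KO and 2883 in WT oocytes, 6310.3 and 4927 in KO and 7875 and 4952 in WT blastocysts, and 1574 in KO and 969 in WT implantation sites. Between implantation sites and blastocysts it fell by 2.26 ± 0.33 (log2, SE; adjusted p = 0.000435), and both implantation arrays lay below all blastocyst arrays. Psmd1, a base scaffold, read 5089 in KO and 3705 in WT oocytes, 4783 and 5141 in KO and 10044 and 5535 in WT blastocysts, and 1313 in KO and 1444 in WT implantation sites. It fell by 2.14 ± 0.34 (adjusted p = 0.00084), again without overlap. Psma7, Psmb6 and Psmd1 were the falls that passed under each of the 18 settings, and 6 of the 14 passed whichever array was left out.

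Psmd7 was the 1 member that rose at the implantation site, by at least 2.41-fold (adjusted p = 0.0250), and it lost its call without the implantation KO array (adjusted p = 0.244) or the implantation WT array (adjusted p = 0.0572). Averaged over all its probe sets, Psmd7 differed by 0.12 and did not pass (adjusted p = 0.897). Psme1 (1.28 ± 0.80) and the ATPase Psmc3 (0.94 ± 0.45) were the next highest and did not pass. Psmc3 read 2025 in KO and 3190.0 in WT implantation sites, against 688 and 991 in KO and 3043 and 1462 in WT blastocysts. Without blastocyst WT replicate 1 its difference was 1.27 and passed (adjusted p = 0.0328). The count of 15 calls dropped to 8 without the implantation WT array, and to 6 when arrays were scaled to a common median.

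Between implantation sites and oocytes 19 members (47.5%) were higher and 4 (10%) lower, where 20.5% and 16.6% of all genes were, and the median was 1.37 against -0.06. Among members above control on every array, Psmc2 (13.25-fold, adjusted p = 4.00e-05), Psmd14 (13.24-fold) and Psmb4 (12.6-fold) rose most. Psmb1 and Psmb7, under control in oocytes, were at least 6.60-fold and 6.84-fold higher. All 3 cutting subunits and 5 of 6 ATPases rose, and 0 of 3 chaperones in this limma fit, where 1 chaperone was higher at an unadjusted p under 0.05. Psmd4 fell by 1.91 ± 0.34 (log2, SE; adjusted p = 0.00104), Psmd1 by 1.66 ± 0.40 (adjusted p = 0.00676), Psme4 by 1.65 ± 0.45 (adjusted p = 0.0126) and Psma7 by 1.28 ± 0.38 (adjusted p = 0.0193). Psmd4 alone of these kept its call whichever array was left out. Psmd1 lost it without the oocyte KO array, and Psme4 and Psma7 without either oocyte array or the implantation WT array. Of the 19 rises 13 passed whichever of the 8 arrays was left out, and 7 under each of the 18 settings. The rise of Psmb6 was lost without the oocyte KO or the implantation KO array (adjusted p of 0.0677 and 0.0586), and that of Psme3 without the implantation KO array (adjusted p = 0.0722). Psma1 lost its call without the oocyte WT or the implantation KO array, Psmc3 without the oocyte WT array, Psmd12 without the oocyte KO or the implantation KO array, and Psmd13 without the oocyte WT or the implantation WT array.

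The subunits of the immunoproteasome were dim before implantation, with arrays on either side of the control level. Psmb8, the inducible counterpart of Psmb5, read 65.1 in KO and 144 in WT oocytes, 96.5 and 129 in KO and 53.3 and 46.6 in WT blastocysts, and 226 in KO and 243 in WT implantation sites. Psmb9, the counterpart of Psmb6, read 162 in KO and 91.9 in WT oocytes, 91.3 and 498 in KO and 349 and 439.7 in WT blastocysts, and 388 in KO and 243 in WT implantation sites. Psmb10, the counterpart of Psmb7, read 385 in KO and 59.7 in WT oocytes, 205 and 102 in KO and 252 and 14.6 in WT blastocysts, and 254 in KO and 478 in WT implantation sites. All 3 lay above the brightest control on both implantation arrays. In blastocysts Psmb9 lay above it on both WT arrays and under it on both KO arrays. Blastocyst arrays lay on either side of it in Psmb10, and all at or under it in Psmb8. In oocytes Psmb10 lay above it in KO (385 against 334), as did Psmb8 in WT (144 against 132). That control was itself lowest on the implantation arrays, at 131 in KO and 100.2 in WT. Psmb9 alone was bright enough to be tested and passed in no comparison with all arrays. It differed by 0.09 ± 0.81 (log2, SE) between implantation sites and blastocysts. Psmb11, the thymus subunit, was under control on all 8 arrays, from 14.3 to 255.

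The summed markers of other cells were highest at the implantation site, although some single genes were not. Irf1 read 1797 and 1573 in KO blastocysts, against 611 in KO and 1237 in WT implantation sites. Tyrobp read 1178 and 1842 in KO blastocysts, against 704 in KO and 666 in WT implantation sites. The summed signal of 11 measured genes of interferon response and antigen presentation was 3625 in KO and 2973 in WT oocytes, 6858 and 5566 in KO and 3408 and 3727 in WT blastocysts, and 14215 in KO and 20353 in WT implantation sites. Of these genes 10 were above control on each implantation array. The sum of 12 leukocyte markers was 3014 in KO and 2388 in WT oocytes, 11121 and 17369 in KO and 4550 and 8359 in WT blastocysts, and 50886 in KO and 39225 in WT implantation sites. Of these markers 9 and 12 were above control in KO and WT implantation sites. The part of leukocytes and uterine cells in the immunoproteasome values was not tested. The members nearest the signal filter of 151 were Psma8 (mean 139.6) and Psmb10 (147) outside it, and Psmd9 (196) and Psmb9 (237) inside it.

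**Figure D3:**
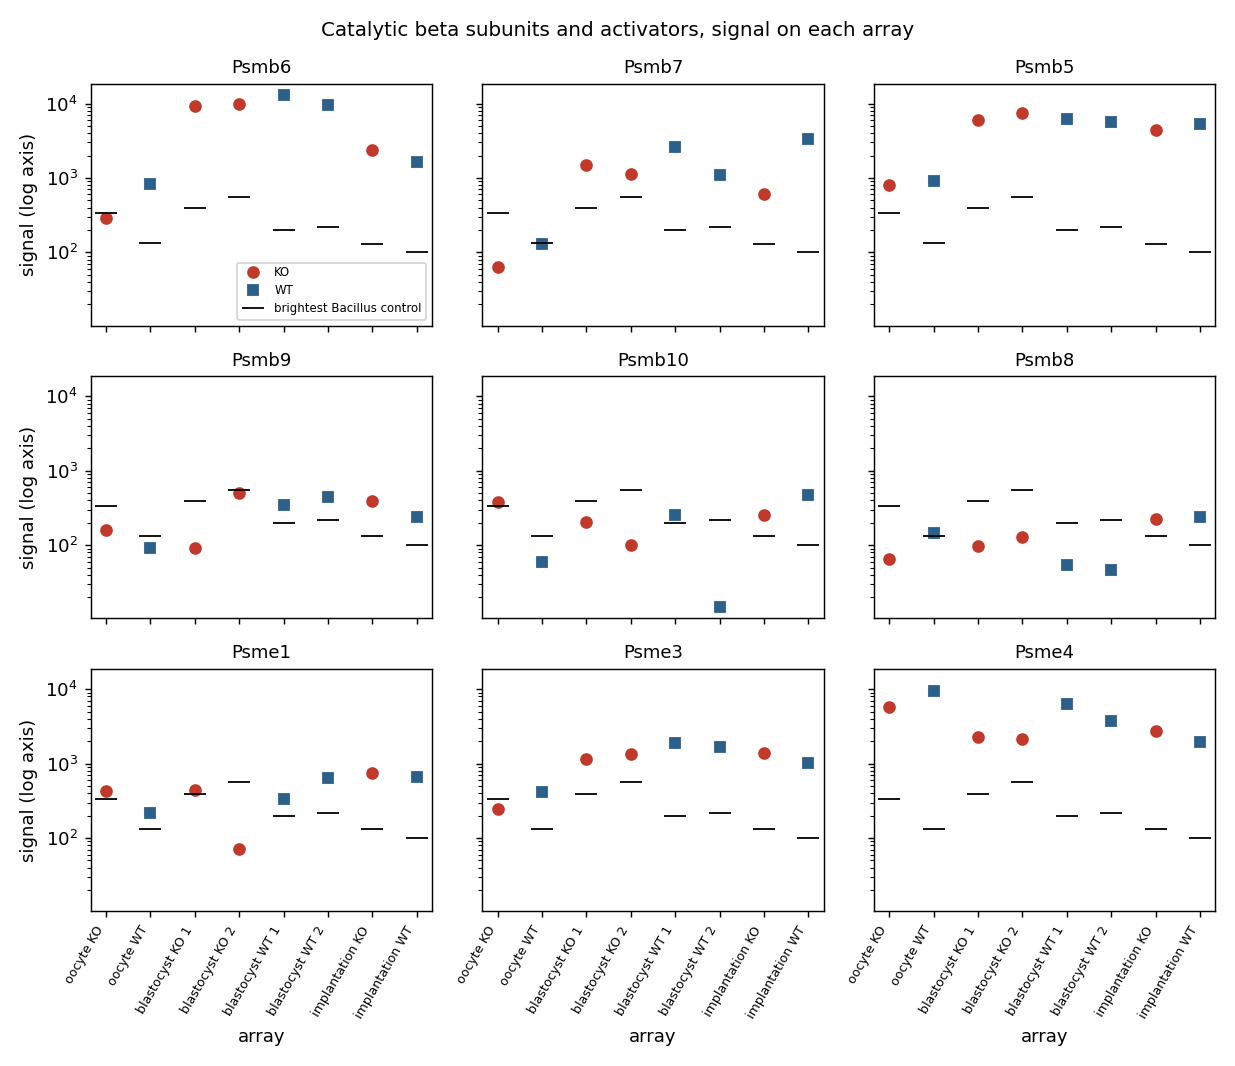
Signal (log axis) on each of the 8 arrays for the constitutive cutting subunits (top row), their immunoproteasome counterparts (middle row) and the activators (bottom row), with KO as circles and WT as squares; black dashes mark the brightest Bacillus control of each array. Psmb5, Psmb6 and Psmb7 lie far above the dashes in blastocysts, and Psmb8, Psmb9 and Psmb10 lie above them on both implantation arrays.

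The question the study set was how loss of connexin 43 changes these stages. In blastocysts 0 of 40 members rose and 0 fell between KO and WT in limma on 2 against 2 arrays, where 0.102% of all genes tested rose and 0% fell. At an unadjusted p under 0.05, 0 members were higher and 5 were lower, beside 1030 higher and 788 lower of all genes. The median member difference was -0.28 against -0.01 over all genes tested, and 32 of 40 members lay below 0. Over all 44 members, filtered or not, 75% lay below 0, against 46.1% of all 18194 genes. Without the array labelled WT replicate 2 the median was -0.55. The SD of the members' median between blastocyst replicates of a genotype was 0.245.

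The lowest differences were those of Psme1, Psmc3 and Psme4. Psmc3 read 688 and 991 in KO and 3043 and 1462 in WT blastocysts, a difference of -1.35 ± 0.43 (log2, SE; adjusted p = 0.229). Psme4 read 2298 and 2141 in KO and 6355 and 3727 in WT blastocysts (-1.13 ± 0.33, adjusted p = 0.203), while its other bright probe sets differed by 0.67 and -2.23. Psme1 read 438 and 71.9 in KO and 333 and 643 in WT blastocysts, so its genotypes overlapped (-1.38 ± 0.89, adjusted p = 0.477). Named for their unadjusted p after the values were seen, Psma1 (-1.11 ± 0.29), Psmd5 (-1.001 ± 0.37) and Psmd6 (-0.69 ± 0.30) had adjusted p-values of 0.177, 0.273 and 0.318. The cutting subunits differed by 0.17 ± 0.28 for Psmb5, -0.24 ± 0.30 for Psmb6 and -0.39 ± 0.44 for Psmb7.

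The highest differences were those of Psmd11, Psmd4 and Psmc3ip. Psmd11 read 47025 and 45530.5 in KO and 19725 and 35028 in WT blastocysts, a difference of 0.82 ± 0.39 (log2, SE; adjusted p = 0.351). Without the array labelled WT replicate 2 it was 1.23 ± 0.19 and passed (adjusted p = 0.0319), with the single WT array assumed to vary like the others. Over all 11746 genes the same fit called 294 higher and 22 lower, against 12 and 0 with that array. Its other bright probe sets differed by -0.69, -0.54, 1.64 and -0.19, so they did not share a sign. Psmd4 read 3860.4 and 4232 in KO and 2921 and 2924 in WT blastocysts (0.47 ± 0.27, adjusted p = 0.436). Psmc3ip differed by 0.24 ± 0.36. The Actb 3′ to 5′ ratio was 25.7 and 39.0 in KO against 69.3 and 69.1 in WT blastocysts, and the leukocyte markers summed to 11121 and 17369 in KO against 4550 and 8359 in WT. The sums rested mostly on few genes: Csf1r read 6134 and 11937 in KO against 593 and 3881 in WT, and Laptm5 2288 and 2219 against 2490 and 2311. Of the 12 markers, 3 lay above control on each KO array and 4 on each WT array. The part of the Actb ratio and of these markers in the genotype differences was not tested.

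In the fit of a KO effect common to the stages, limma called 0 of 40 members higher and 0 lower, where 0% and 0% of all genes tested were called. At an unadjusted p under 0.05, 0 members were higher and 2 were lower, beside 428 higher and 385 lower of all genes. These 2, named after their values were seen, were Psmb7 (-1.06 ± 0.43, adjusted p = 0.707) and Psmd5 (-0.90 ± 0.29, adjusted p = 0.707). The median was -0.21, against -0.01 over all genes.

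Oocytes had 1 array per genotype, so their differences have no replicate check. In KO oocytes 1 member was at least 2-fold higher and 3 were at least 2-fold lower, where 23.9% and 12.3% of all genes tested were. The median was -0.28 against 0.09 over all genes. It depended on the choice of probe set, since averaging every probe set of each gene gave 0.0468, and 17 of the 26 other bright probe sets had the opposite sign to the chosen one. Psmb6 read 292 on the KO array and 835 on the WT array, at least 2.50-fold lower in KO, whose value was under the control level. The other members past 2-fold were at or under control on both arrays and carry no fold: Psmd13 with 114 in KO and 37.8 in WT, Psmd9 with 36.6 and 93.5, and Psmb7 with 64.0 and 128.9. Psmc3ip (0.99) and Psme1 (0.97) were next highest, Psmc3ip with 773 in KO and 390.1 in WT oocytes. The KO oocyte array had the lower Actb 3′ to 5′ ratio, 6.68 against 33.4 in WT, and a brighter control, and their part was not tested.

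At the implantation site, also with 1 array per genotype, 2 members were at least 2-fold higher in KO and 2 at least 2-fold lower, where 6.12% and 15.9% of all genes tested were. The median was 0.21 against -0.13 over all genes, but 0.00637 after quantile normalization and 0.62 after scaling to a common median. All 7 tested alpha subunits lay above 0, from 0.35 to 1.07. Below 0 lay 4 of 6 ATPases, 2 of 3 cutting subunits, 2 of 3 other base subunits and 2 of 3 chaperones. Of all 40 tested members 25 lay above 0 and 15 below. Over all 44 members 56.8% lay above 0, against 40.8% of all 18194 genes. The part of uterine RNA in these differences was not tested. Psmc6, an ATPase, read 15926 in KO and 7352 in WT (2.17-fold higher), and Psma5 20255 in KO and 9680.4 in WT (2.09-fold higher). The cutting subunit Psmb7 read 614 in KO and 3365 in WT, 5.48-fold lower, and the lid subunit Psmd13 read 413 and 977, 2.37-fold lower. The next were Psmb4, 1.63-fold higher in KO, and the ATPase Psmc1, 1.87-fold lower with 1183 in KO and 2213 in WT. All of these lay above the control level on both arrays. The differences depended in part on the probe set: of 26 other bright probe sets of members, 14 had the sign of the chosen one and 12 the opposite. Another bright probe set of Psma5 differed by -0.25 and one of Psmb4 by -0.28. Those of Psmc6 (0.67 and 0.63) and Psmd13 (-1.04) kept the sign. The KO minus WT difference of Psmb7 was below 0 in each of the 3 stages, but KO and WT blastocysts overlapped and both oocyte arrays were under control.

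**Figure D4:**
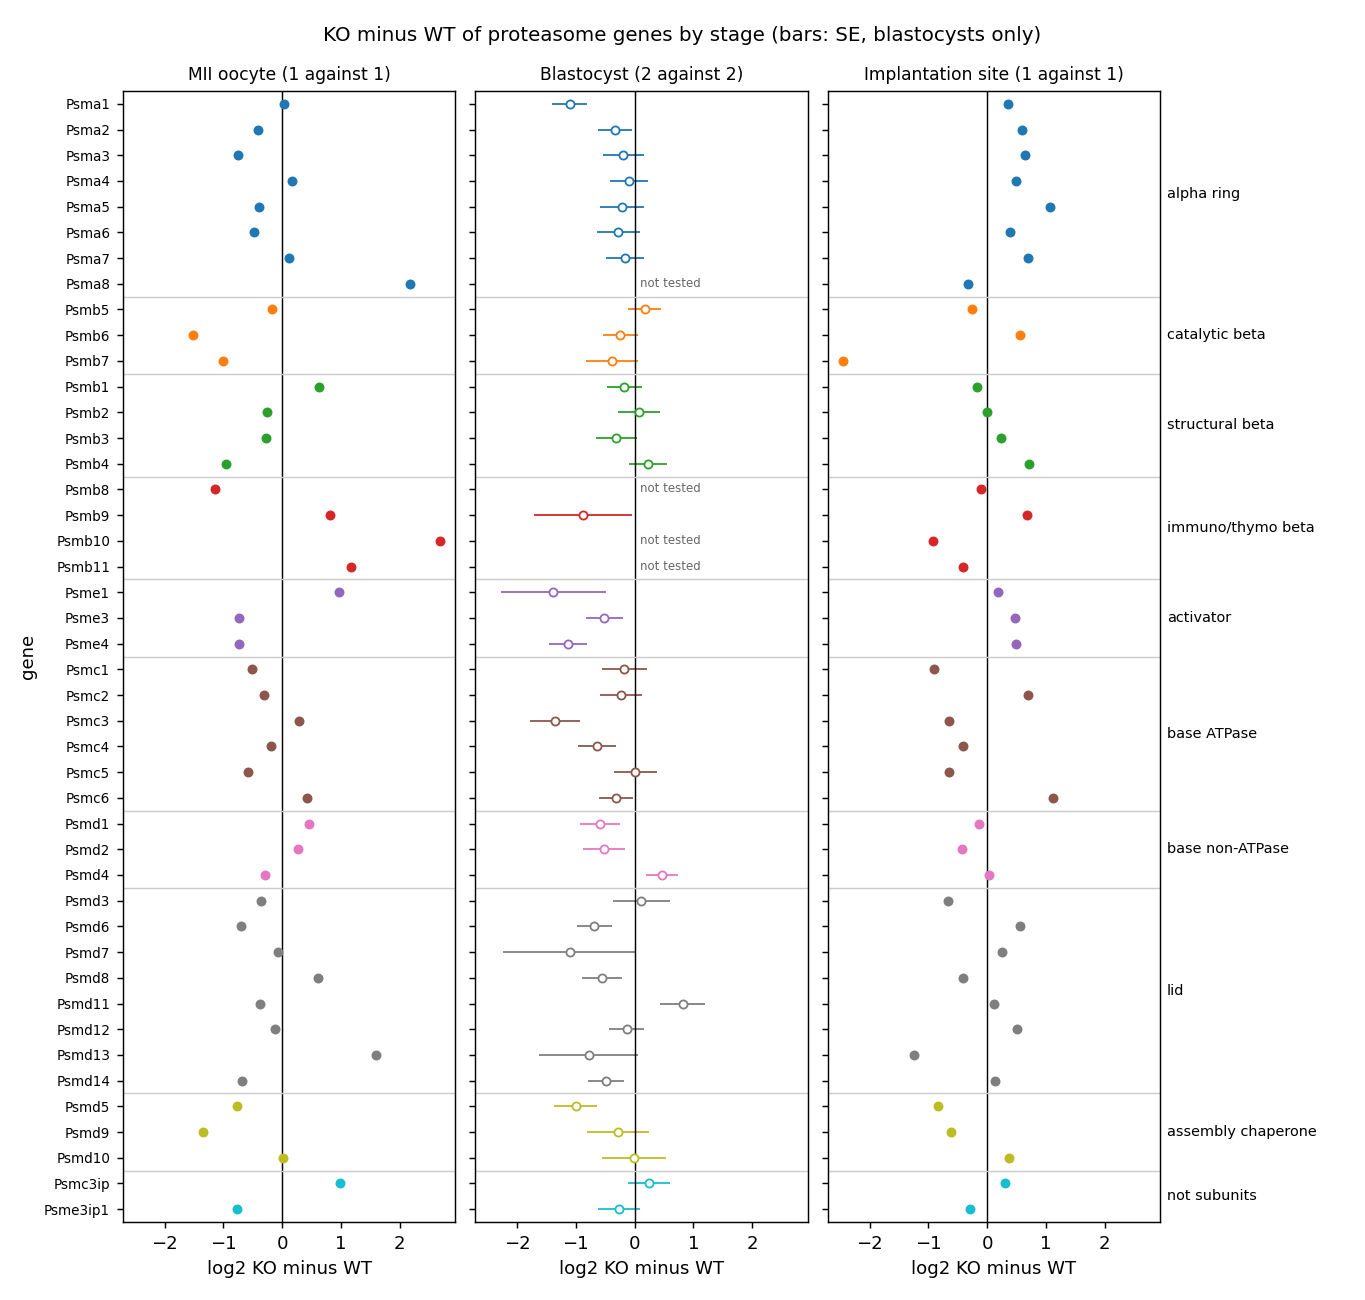
Log2 difference KO minus WT of each member in MII oocytes (left, 1 array each), blastocysts (middle, 2 arrays each, bars are SE) and implantation sites (right, 1 array each). Open points in the middle did not pass, and Psmb7 at -2.45 is the lowest point at the implantation site.

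The rest of the pathway was read from a list of 35 symbols of assembly factors, regulators, ubiquitin shuttles and ubiquitin enzymes, of which 24 were found and 23 tested. Between blastocysts and oocytes 12 rose (52.2%) and 5 fell (21.7%), where 26.9% and 18.6% of all genes tested did. Psmg2, which pairs with Psmg1 to start the alpha ring, was under control on both oocyte arrays and at least 4.99-fold higher in blastocysts. The lid subunit Sem1 was 3.68 higher on the log2 scale. Vcp, the ATPase that extracts proteins for degradation, was 3.42 higher, with the oocyte KO array under control. Ecpas, a scaffold that binds the assembled proteasome, was lower by a difference of -3.00. Psmg1 itself fell by 1.30 (log2), opposite to Psmg2, and so did the ubiquitin shuttle Ubqln1, by 1.90, the inhibitor Psmf1, by 1.79 with 3 of 4 blastocyst arrays under control, and Zfand5, by 1.47.

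At the implantation site against blastocysts 0 of 23 rose in limma, with 1 higher at an unadjusted p under 0.05, and 5 fell (21.7%), where 15.3% and 20% of all genes tested did. These were Zfand2a (-3.03), Psmg2 (-2.17), Psmg3 (-1.92), the deubiquitinase Usp14 (-1.13) and Ubqln1 (-1.07). Against oocytes 9 were higher (39.1%) and 6 lower (26.1%), where 20.5% and 16.6% of all genes tested were, with Sem1 2.89 higher and Ecpas lowest at -3.51. Uba6, a ubiquitin-activating enzyme, was fitted as 4.11 higher, but its oocyte KO array was under control. Between KO and WT 0 of 23 passed in limma in either direction, in blastocysts or in common over the stages, where at most 0.102% of all genes tested did. At an unadjusted p under 0.05, 1 was higher and 1 lower in KO blastocysts, and 0 and 0 in common. In KO oocytes 1 was at least 2-fold higher by its signal (4.35%) and 4 lower (17.4%), where 23.9% and 12.3% of all genes tested were. The higher one, Nploc4, read 209 in KO and 33.3 in WT, both under control. Of the lower ones Sem1 read 718 in KO and 1663 in WT, and the other KO values were under control, which leaves Vcp at least 2.03-fold, Psmg3 at least 1.88-fold and Uba6 at least 1.20-fold lower. In KO implantation sites 1 was at least 2-fold higher (4.35%; Psmg2, 421 in KO and 129.7 in WT) and 2 lower (8.70%), where 6.12% and 15.9% of all genes tested were. Psmf1 was at least 2.44-fold lower, its KO value being under control, and Ube3c differed by -1.11 on the log2 scale.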

How the data were processed

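RNA of MII oocytes, blastocysts and implantation sites was measured on 8 Affymetrix arrays, with biotin-labelled polyadenylated RNA. The authors deposited 1 table of signal intensity, computed with MAS5 per the submitters' processing notes; the sources used here give neither its version nor a genome build. The values were tested and found to have a 2% trimmed mean of 500 on every array. The number of arrays limits the precision, and no detection calls were used.

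Of the 45101 probe sets, 34945 had 1 gene in the platform annotation, whose symbols were updated through RefSeq identifiers; those with several genes (932), no gene (9160) or a control role (64) took no part in the tests. Each gene kept its probe set of highest mean log2 intensity, and genes in the upper 50% of probe sets (mean signal of at least 151) were tested, 11746 in all. Tests ran over all of them with limma 3.58.1 in R 4.3.3 (lmFit, then eBayes fitted with a trend on intensity), two-sided, at a Benjamini-Hochberg adjusted p under 0.05. KO and WT blastocysts were compared on 4 arrays, and stages and a common KO effect in a fit of stage plus genotype on 8 arrays. Stages with 1 array per genotype were described by log2 differences, with no test. Bacillus controls were taken as background, on the assumption, not stated in any source used here, that none of their RNA was added.

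Named genes were all members by role. Every array's value was given for the cutting subunits, their immunoproteasome counterparts, the activators and the 3 highest and 3 lowest differences of each comparison, and beyond the rule for Psma3 and Psmd14. The members, the pathway and marker lists and the tests were chosen with earlier results of these data known. Alternatives tried were scaling to a common median, quantile normalization, a pseudocount of 46.6, the upper 30% of probe sets, no filter, averaging the probe sets of a gene, using those without a suffix, eBayes with no trend, a replicate block, and fits without single arrays, a genotype or a stage. Leaving out single oocyte and implantation arrays was added after the data were seen. The labels do not pair replicate numbers between genotypes. The fits were tested on simulated data. Figures were made with matplotlib 3.10.9 (Python 3.11.15).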

Additional observations from a re-analysis of the deposited data

Results flagged for a closer look

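Psmd13, the lid subunit, differed between KO and WT in opposite directions in oocytes and at the implantation site. The log2 difference was 1.60 in oocytes, with 114 in KO and 37.8 in WT, and -1.24 at the implantation site, with 413 in KO and 977 in WT. Each value rests on 1 array per genotype, both oocyte values were under the control level, and the difference between the stages was not tested.

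The probe set annotated to both Psme2 and Psme2b, which entered no comparison, had signal over the brightest Bacillus control on 4 arrays. It read 488.98 on blastocyst KO replicate 1, 410.72 on blastocyst WT replicate 1, 404.08 on the implantation KO array and 552.23 on the implantation WT array. On the other blastocyst arrays it read 299.81 in KO replicate 2 and 164.35 in the array labelled WT replicate 2, and in oocytes 68.23 in KO and 23.77 in WT, all under that level.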

How the results depend on the processing

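With blastocyst KO against WT the count of members called was 0 under every alternative run but 1, with a range of 0 to 1 when single arrays were left out: 1 member, Psmd11, passed without the array labelled WT replicate 2, where the calls over all genes were 294 higher and 22 lower in place of 12 and 0. The common KO effect called 0 members under every alternative run. The replicate number as a block called 0 members in both, and the numbers do not pair the arrays in the labels. Over all genes tested, which are not independent, the KO replicates' difference had r = 0.0182 with the WT replicates' difference. For blastocysts against oocytes the count of 31 was 22 to 31 under other processing and 21 to 31 without single arrays. For implantation sites against blastocysts the count of 15 was 6 with scaling to a common median, and 8 to 15 without single arrays, 8 without the implantation WT array. Against oocytes the count of 23 was 13 with probe sets without suffix only, where fewer genes were tested, and 18 to 23 without single arrays. Scaling to a common median moved the median member difference to -0.83 in KO oocytes, 0.62 in KO implantation sites and -0.53 in KO blastocysts, and shifted the median of all genes by -0.54, 0.41 and -0.25, since it moves every gene of an array alike. The mean of all probe sets gave 0.0468 in KO oocytes, and quantile normalization 0.00637 in KO implantation sites. Without single arrays the blastocyst median was -0.55 to -0.11, with -0.55 without the array labelled WT replicate 2. Between implantation sites and oocytes the mean of all probe sets turned Psme4 to 0.000232 and Psme3 to -0.85. Of the named genes' values under alternatives, 189 of 213 kept sign and side of the threshold between blastocysts and oocytes, with 23 losing the call and 1 gaining it, 190 of 196 between implantation sites and blastocysts, and 179 of 195 between implantation sites and oocytes. Elsewhere the cause was not tested. The number of arrays, 1 per genotype in oocytes and implantation sites, limits the precision.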
